A study of Mus musculus with 6 samples.

Results

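Glucose enters a cell through a transporter, is trapped by a hexokinase and is broken down by glycolysis to pyruvate, which can be turned into lactate. The 10 genes described here cover that route in mouse RPE-choroid, which is the retinal pigment epithelium (RPE) with the vascular choroid beneath it. They were chosen by symbol and not by a threshold, with earlier results of these data known. They are the glucose transporter Slc2a1, the hexokinases Hk1, Hk2 and Hkdc1, and the glycolytic enzymes Pfkl, Aldoa, Gapdh and Pkm. The lactate dehydrogenase subunits Ldha and Ldhb complete the set. All 10 were found among the 15663 genes listed for every library, and all 10 were among the 13454 genes that were tested, which needed over 50 counts in 2 or more samples. RNA from 3 control mice and 3 mice with subretinal fibrosis (SRF) was sequenced as 6 libraries. Both groups were C57BL/6J males (C57BL/6 in the sample labels) of 8 to 10 weeks, with no transgene, and the controls were untreated. In SRF mice each eye had received 4 laser burns, with another burn to each lesion 10 days later, and RPE-choroid was taken 20 days after that. The tissue is a mixture of cell types, so fewer cells of a type and less RNA per cell cannot be told apart, and the p-values cover only the spread between these 6 libraries.

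In the outer eye, glucose from the choroidal blood crosses the RPE to reach the photoreceptors, which run glycolysis at a high rate and release lactate. The RPE takes up lactate as a fuel and passes it on towards the choroid. Hexokinases carry out the step that commits glucose to a cell: Hk1 is the widely expressed form, Hk2 the inducible form and Hk3 a form found in myeloid cells. Hkdc1 is the most recently recognised member of the family.

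Hkdc1 was the 1 gene of the 10 whose groups were apart. It was higher in all 3 SRF libraries than in any control library, at 23.2 ± 4.33 against 9.57 ± 2.34 CPM (counts scaled to a common library size, normalized by edgeR's TMM method; means ± SD, n = 3), a ratio of 2.42. None of the other 9 genes separated the groups, and their fitted log2 differences lay between -0.33 for Slc2a1 and 0.13 for Hk1. In edgeR's quasi-likelihood test, with p-values adjusted by Benjamini-Hochberg over all tested genes, 0 of the 10 genes passed an adjusted p under 0.05 with a log2 fold change of at least 0.5, and 0% of the 13454 tested genes did. With DESeq2 on the same counts and thresholds 1 of the 10 was called, and it was Hkdc1, in a background of 0.803% of tested genes called as higher in SRF. At an unadjusted p under 0.05 in the edgeR test 1 of the 10 was higher and 0 were lower, where the shares over all tested genes were 4.16% and 2.85%. In CPM, 1 of the 10 had groups that did not overlap with SRF higher and 0 with SRF lower, where the shares over all tested genes were 6.71% and 6.43%. Over the 10 genes the fitted difference was above 0 in 4 and below 0 in 6, and its median was -0.06, where the median over all tested genes was 0.0012. Hkdc1 also stands in the list of changed genes that the study drew from these same libraries, so its difference here is not independent evidence.

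**Figure D1:**
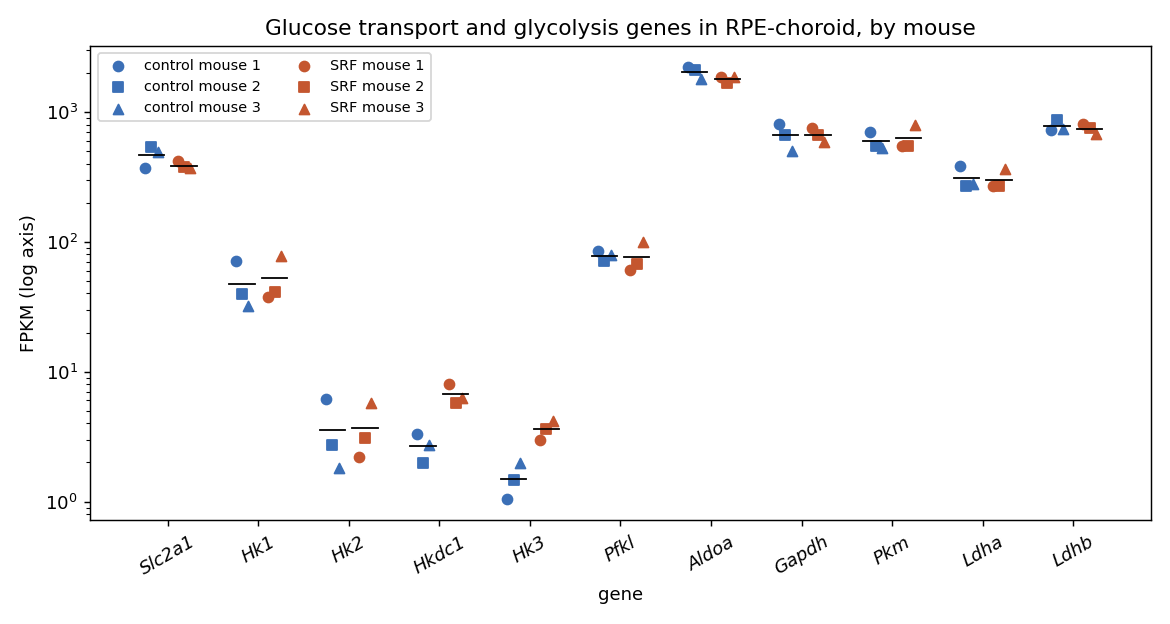
Deposited FPKM (log axis) of the 10 genes and of the hexokinase Hk3 in each of the 3 control (blue) and 3 SRF (orange) mice, with a bar at each group mean. The groups are apart for Hkdc1 and Hk3, and Aldoa is the most abundant of the genes at 2031 FPKM in control and 1799 FPKM in SRF.

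Counts on listed genes summed to between 13667310 and 24356023 per library, and the median standard error of a log2 fold change was 0.19. RPE markers were present in every library, and Rpe65, the visual cycle isomerase, ranged from 2524 to 4687 CPM. Libraries also held photoreceptor RNA in unequal amounts. The mean log2 CPM of 20 photoreceptor genes was 8.16, 5.52 and 4.86 in control mice 1, 2 and 3 and 4.39, 5.22 and 8.18 in SRF mice 1, 2 and 3, so control mouse 1 and SRF mouse 3 stood apart, with 1 in each group. Levels of different genes are given in FPKM, which is scaled by transcript length, and differences between groups come from the counts.

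Among the genes of this route, Aldoa had the highest FPKM in both groups and the hexokinases the lowest. In control the order was Aldoa, Ldhb, Gapdh, Pkm, Slc2a1, Ldha, Pfkl, Hk1, Hk2 and Hkdc1, from 2031 ± 215 to 2.67 ± 0.661 FPKM (SD, n = 3). The libraries of neighbouring genes overlapped from Ldhb through Gapdh, Pkm and Slc2a1 to Ldha, and again between Hk2 and Hkdc1. In SRF the order was the same except that Hkdc1, at 6.68 ± 1.22 FPKM, stood above Hk2, at 3.69 ± 1.86 FPKM. The libraries of this pair overlapped in SRF also. In SRF the neighbours from Ldhb to Pkm overlapped, as did Pfkl and Hk1, while Pkm, Slc2a1 and Ldha were apart from each other.

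Slc2a1 (ENSMUSG00000028645, chr4:119108711-119137983, plus strand) encodes GLUT1, the main glucose transporter of the RPE and of barrier endothelium. Its level was 370.5, 537.9 and 488.9 FPKM in control mice 1, 2 and 3 and 416.1, 373.4 and 369.4 FPKM in SRF mice 1, 2 and 3. Control mouse 1 lay among the SRF mice, and the other control mice lay above all of them. The fitted log2 fold change was -0.33 (SE 0.16, 95% interval -0.71 to 0.05), and it did not pass edgeR's test (unadjusted p = 0.0797, adjusted p = 0.780). Without control mouse 1 the DESeq2 adjusted p was 0.0193 at a log2 fold change of -0.48, which is under the fold threshold. Summed over 15 RPE markers, the CPM was 47472 to 55734 in control and 32715 to 42485 in SRF. The largest part of the sum was Rgr alone, at 24327 to 27113 CPM in control and 13990 to 17560 CPM in SRF. By the fitted value 12 of the 15 markers were lower and none was at 0. In CPM 5 of the 15 were lower in SRF without overlap, where 6.43% of all tested genes were. The part of the RPE markers in the Slc2a1 level was not tested.

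Hkdc1 (ENSMUSG00000020080) lies at chr10:62383137-62422491 on the minus strand of the mouse genome (GRCm38), and Hk1 (ENSMUSG00000037012) follows it on the same strand at chr10:62268855-62379908, with 3228 bases between them. Hk2 (ENSMUSG00000000628) is at chr6:82725025-82774454 and Hk3 (ENSMUSG00000025877) at chr13:55005985-55021385, both on the minus strand as well. The 250 bases before each start site are shown so that the promoter of Hkdc1 can be set beside those of its neighbour Hk1 and of the other hexokinases. The sequences are from RefSeq on GRCm38.p6, 5′ to 3′ on the gene's own strand, and capitals mark the core of the hypoxia response element, ACGTG, or its reverse complement CACGT.
Hkdc1, chr10:62422458-62422707: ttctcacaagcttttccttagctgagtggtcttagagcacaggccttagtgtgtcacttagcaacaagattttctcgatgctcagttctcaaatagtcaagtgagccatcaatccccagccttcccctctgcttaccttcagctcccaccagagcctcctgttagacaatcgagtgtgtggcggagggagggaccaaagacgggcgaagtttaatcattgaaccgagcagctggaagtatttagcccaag
Hk1 start site 1, chr10:62379909-62380158: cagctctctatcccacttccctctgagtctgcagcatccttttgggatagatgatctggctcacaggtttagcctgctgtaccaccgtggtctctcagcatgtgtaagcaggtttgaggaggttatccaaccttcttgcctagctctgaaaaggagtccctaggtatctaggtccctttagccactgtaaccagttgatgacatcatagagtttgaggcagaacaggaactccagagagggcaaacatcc
Hk1 start site 2, chr10:62340422-62340671: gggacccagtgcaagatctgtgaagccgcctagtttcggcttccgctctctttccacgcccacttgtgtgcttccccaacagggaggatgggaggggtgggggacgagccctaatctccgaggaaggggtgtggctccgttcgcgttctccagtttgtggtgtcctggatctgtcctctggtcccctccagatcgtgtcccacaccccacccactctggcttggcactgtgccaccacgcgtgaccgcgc
Hk2, chr6:82774455-82774704: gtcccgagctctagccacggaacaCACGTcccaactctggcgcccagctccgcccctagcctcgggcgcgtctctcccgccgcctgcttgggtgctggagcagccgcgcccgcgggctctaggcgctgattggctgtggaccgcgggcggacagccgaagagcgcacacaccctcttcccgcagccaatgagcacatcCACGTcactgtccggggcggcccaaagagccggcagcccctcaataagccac
Hk3, chr13:55021386-55021635: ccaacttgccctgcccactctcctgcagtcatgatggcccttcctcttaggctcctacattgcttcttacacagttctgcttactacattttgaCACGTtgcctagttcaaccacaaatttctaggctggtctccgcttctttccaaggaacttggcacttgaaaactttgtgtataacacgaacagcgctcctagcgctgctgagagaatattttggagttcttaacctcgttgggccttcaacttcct

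The core was searched on both strands. It occurred 2 times before Hk2 and 1 time before Hk3, and these letters were not in the windows of Hkdc1 or of either Hk1 start site. Of the 16 windows before the start sites of the 10 genes and Hk3, 7 held it, those of Aldoa start sites 2 and 3 overlapping each other, and of 32851 promoters of the same length 16.6% did. Before the first start site of Ldha the 2 strands together gave 5 matches, and before Slc2a1 1 match. A stretch of CACGTG would give 2 matches, 1 on each strand, so matches need not equal separate stretches. A match describes the letters and not a bound site.

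Hk1 made up most of the hexokinase message. It was at 70.59, 39.73 and 32.28 FPKM in control mice 1, 2 and 3 and at 37.65, 41.25 and 77.82 FPKM in SRF mice 1, 2 and 3. The highest library of each group was the one rich in photoreceptor RNA, and the groups overlapped throughout. The log2 fold change was 0.13 (SE 0.30, 95% interval -0.58 to 0.84), and without SRF mouse 3 it was -0.16. Hk2 had the same pattern at a lower level, at 6.13, 2.71 and 1.82 FPKM in control and 2.21, 3.07 and 5.78 FPKM in SRF. Its log2 fold change was 0.01 (SE 0.52, 95% interval -1.21 to 1.24), and it was -0.46 without SRF mouse 3.

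Hkdc1 was at 3.31, 1.99 and 2.72 FPKM in control mice 1, 2 and 3, from 159, 132 and 233 counts. In SRF mice 1, 2 and 3 it was at 8.06, 5.74 and 6.23 FPKM, from 518, 354 and 388 counts. The lowest SRF library was above the highest control library, and neither photoreceptor-rich library was at an extreme over the 6. The log2 fold change was 1.28 (SE 0.24, 95% interval 0.72 to 1.83), which is 2.42-fold in mean CPM. The edgeR test gave an unadjusted p of 0.00099, the rank of 54 among the tested genes, and an adjusted p of 0.246, so the gene was not called. DESeq2 gave a log2 fold change of 1.28 with an adjusted p of 0.000757. A larger log2 fold change was found in 0.387% of tested genes. With control mouse 1 and SRF mouse 3 left out, edgeR gave 1.49 with an adjusted p of 0.0308, a fit on 2 mice a group.

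Hk3, which is no member of the set of 10 but a further tested hexokinase, was at 1.05, 1.47 and 1.97 FPKM in control and 3.00, 3.59 and 4.19 FPKM in SRF. Its groups did not overlap either. The log2 fold change was 1.22 (SE 0.30, 95% interval 0.51 to 1.93), with an adjusted p of 0.397 in edgeR and 0.0528 in DESeq2, so neither fit of all 6 libraries called it. DESeq2 did call it with the photoreceptor level as a covariate (log2 fold change 1.22, adjusted p = 0.0187) and without control mouse 3 (1.49, adjusted p = 0.00682). Its counts were 43 to 148 in control and 164 to 230 in SRF, and Unc5a overlaps it on the opposite strand.

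**Figure D2:**
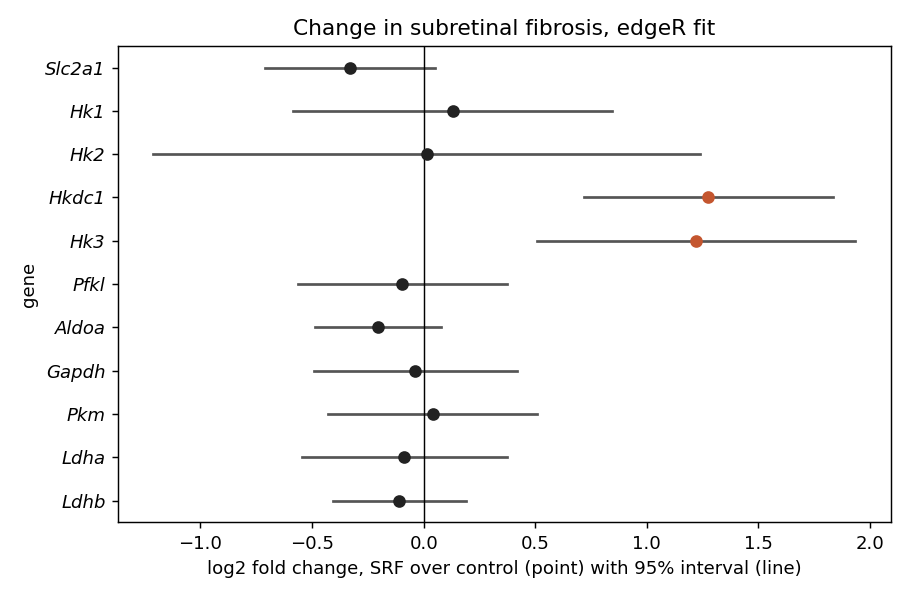
Log2 fold change of SRF over control from the edgeR fit (points) with its 95% interval (lines) for the 10 genes and Hk3. The intervals of Hkdc1 (0.72 to 1.83) and Hk3 (0.51 to 1.93) lie above 0, and those of the other 9 genes include 0.

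The contrast of Hkdc1 with the other hexokinases was taken within each library, where no scaling between libraries enters. The log2 ratio of Hkdc1 to Hk1 counts was -4.26, -4.36 and -3.62 in control mice 1, 2 and 3 and -2.35, -2.94 and -3.51 in SRF mice 1, 2 and 3. The groups did not overlap in this ratio, with control mouse 3 and SRF mouse 3 next to each other. The difference was 1.15 on the log2 scale, 2.22-fold, with an exact permutation p of 0.1 (two-sided), the smallest that 3 mice against 3 can give. In FPKM the ratio of Hkdc1 to Hk1 was 0.0843 in control mouse 3 and 0.0801 in SRF mouse 3, so the groups overlapped in that unit, with an exact permutation p of 0.2. Against Hk2 the difference in the log2 count ratio was 1.21, and the groups overlapped (exact permutation p = 0.2). Against Hk3, a contrast added after the values had been seen, it was 0.03 (exact permutation p = 0.9), with per-library values of 0.65 to 1.87 in control and 0.75 to 1.66 in SRF.

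As a share of the summed FPKM of Hk1, Hk2, Hk3 and Hkdc1, Hkdc1 took 4.08%, 4.34% and 7.01% in control mice 1, 2 and 3. In SRF mice 1, 2 and 3 it took 15.8%, 10.7% and 6.63%. SRF mouse 3, rich in photoreceptor RNA and in Hk1, fell among the controls, and the other SRF mice were above all of them. The difference of the means was 5.91 percentage points (exact permutation p = 0.2), and 3.52 points without SRF mouse 1. The share of Hk1 was 83.2% to 87.1% in control and 73.9% to 82.8% in SRF, which did not overlap (exact permutation p = 0.1). The summed FPKM of the 4 genes was 38.8 to 81.1 in control and 50.9 to 94.0 in SRF, so the totals overlapped.

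**Figure D3:**
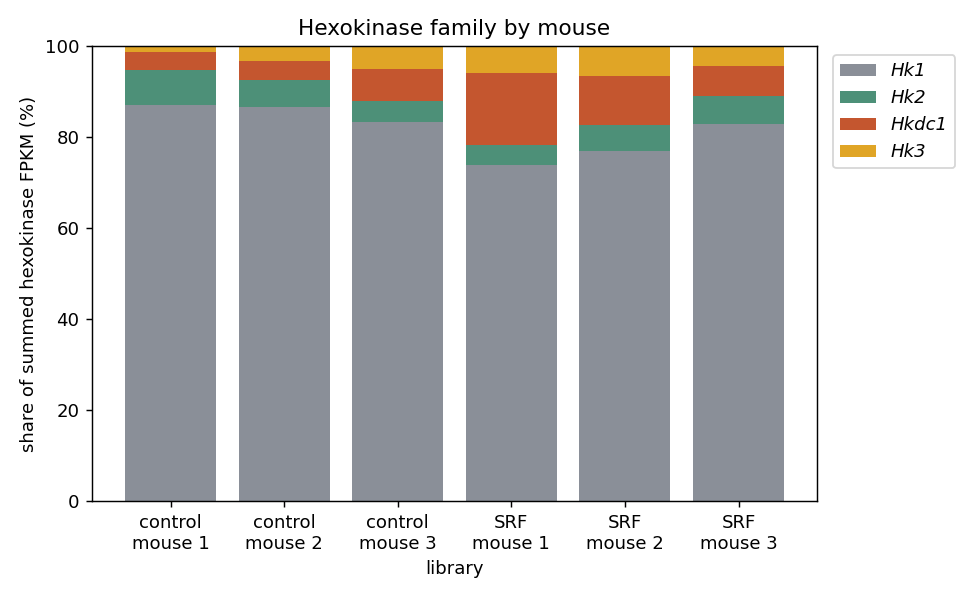
Share of the summed FPKM of 4 hexokinase genes (percent, stacked to 100) taken by Hk1, Hk2, Hkdc1 and Hk3 in each of the 6 libraries. Hkdc1 takes 15.8% in SRF mouse 1 and 10.7% in SRF mouse 2 but 6.63% in SRF mouse 3, next to 7.01% in control mouse 3.

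Pfkl (ENSMUSG00000020277, chr10:77986947-78010083) and Aldoa (ENSMUSG00000030695, chr7:126795234-126800751), both on the minus strand, act in the preparatory steps of glycolysis. Pfkl, the liver-type subunit of phosphofructokinase, was at 84.2, 71.7 and 78.8 FPKM in control and 60.2, 67.1 and 100.0 FPKM in SRF. The SRF libraries lay on both sides of the controls. The fitted log2 fold change was -0.10 (SE 0.20, 95% interval -0.56 to 0.37), and it was 0.038 without SRF mouse 1. Aldoa, the aldolase of muscle and most other tissues, was at 2198, 2106 and 1788 FPKM in control and 1854, 1681 and 1861 FPKM in SRF. Control mouse 3 lay among the SRF libraries. Fam57b overlaps Aldoa on the opposite strand, and another annotated Aldoa identifier (ENSMUSG00000114515), 38 bases away, was not listed. The log2 fold change of Aldoa, -0.21 (SE 0.12, 95% interval -0.49 to 0.08), did not pass the edgeR test (adjusted p = 0.855).

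Gapdh (ENSMUSG00000057666, chr6:125161715-125166467, minus strand) and Pkm (ENSMUSG00000032294, chr9:59656368-59679375, plus strand) act in the steps that yield ATP and NADH. Gapdh, the glyceraldehyde phosphate dehydrogenase often used as a reference gene, was at 809.2, 668.2 and 499.2 FPKM in control and 745.9, 663.1 and 586.6 FPKM in SRF. The control range enclosed the SRF range. The difference was -0.04 on the log2 scale (SE 0.19, 95% interval -0.49 to 0.42), and without control mouse 1 it was 0.14. The annotation holds 157 genes of at least 90% identity to its message over 300 bases or more, 152 of them pseudogenes. Of these genes 3 were listed, Peli2, Gm3839 and Gm10358, with 3675 counts over the 6 libraries against 96110 for Gapdh. These are the counts of each whole gene, not only of its similar stretch. The authors' counting could split reads among Gapdh and such genes, and Iffo1 overlaps Gapdh on the opposite strand. Pkm, the pyruvate kinase of most tissues, was at 705.3, 548.3 and 527.9 FPKM in control and 549.5, 543.9 and 798.8 FPKM in SRF. The photoreceptor-rich library was the highest of each group. On the log2 scale the difference was 0.04 (SE 0.20, 95% interval -0.43 to 0.51) and -0.16 without SRF mouse 3, and its spliced forms cannot be told apart in gene counts.

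Ldha (ENSMUSG00000063229, chr7:46841475-46855627, plus strand) and Ldhb (ENSMUSG00000030246, chr6:142490249-142507957, minus strand) encode the subunits of lactate dehydrogenase, the former favoured in tissues that make lactate and the latter in tissues that use it. Ldha was at 382.2, 269.2 and 276.9 FPKM in control and 270.4, 270.0 and 364.7 FPKM in SRF. The 4 libraries poor in photoreceptor RNA lay between 269.2 and 276.9 FPKM, whichever group they came from. The fitted log2 fold change was -0.09 (SE 0.19, 95% interval -0.55 to 0.37), and it was 0.10 without control mouse 1. Ldhb was at 722.7, 859.1 and 739.9 FPKM in control and 802.3, 750.8 and 673.8 FPKM in SRF, with a log2 fold change of -0.11 (SE 0.13, 95% interval -0.41 to 0.19). The FPKM of Ldhb exceeded that of Ldha in each library, by 1.85 to 3.19 times. The log2 ratio of Ldha to Ldhb counts differed between the groups by 0.02 (exact permutation p = 0.9), and it was highest in the photoreceptor-rich libraries, at -0.63 in control mouse 1 and -0.60 in SRF mouse 3.

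Control mouse 1 and SRF mouse 3 held the highest CPM of all 6 libraries for Hk1, Hk2, Pfkl, Pkm and Ldha. This is 5 of the 10 genes, or 50%, and over all tested genes the share was 15.5%. In CPM this pair held the lowest values of 0 of the 10 genes and of 10.4% of all tested genes. In FPKM the mean of the pair over the mean of the other 4 libraries was 2.43 for Hk2, 1.97 for Hk1, 1.39 for Pkm, 1.37 for Ldha, 1.33 for Pfkl and 1.03 for Hkdc1. In CPM, Hkdc1 was higher in SRF in both kinds of library, by 1.84 times between the photoreceptor-rich libraries and by 2.83 times between the means of the other 4. These ratios lay on the same side of 1 for Hk1, at 1.09 and 1.10, for Ldha, at 0.929 and 0.951, for Aldoa, at 0.850 and 0.876, and for Ldhb, at 0.909 and 0.936. They lay on either side of it for Slc2a1, at 1.001 and 0.722, for Hk2, at 0.920 and 1.12, for Pfkl, at 1.17 and 0.811, for Gapdh, at 0.711 and 1.16, and for Pkm, at 1.11 and 0.975. For Hk3 they were 4.02 and 1.84. With the photoreceptor mean as a covariate in the edgeR fit the SE fell from 0.30 to 0.11 for Hk1, from 0.52 to 0.17 for Hk2 and from 0.19 to 0.11 for Ldha. For Hkdc1 it was 0.24 in both fits. In that fit the log2 fold changes were 0.19 for Hk1, 0.17 for Hk2 and 1.29 for Hkdc1, and none was called (edgeR adjusted p = 0.691, 0.846 and 0.124).

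**Figure D4:**
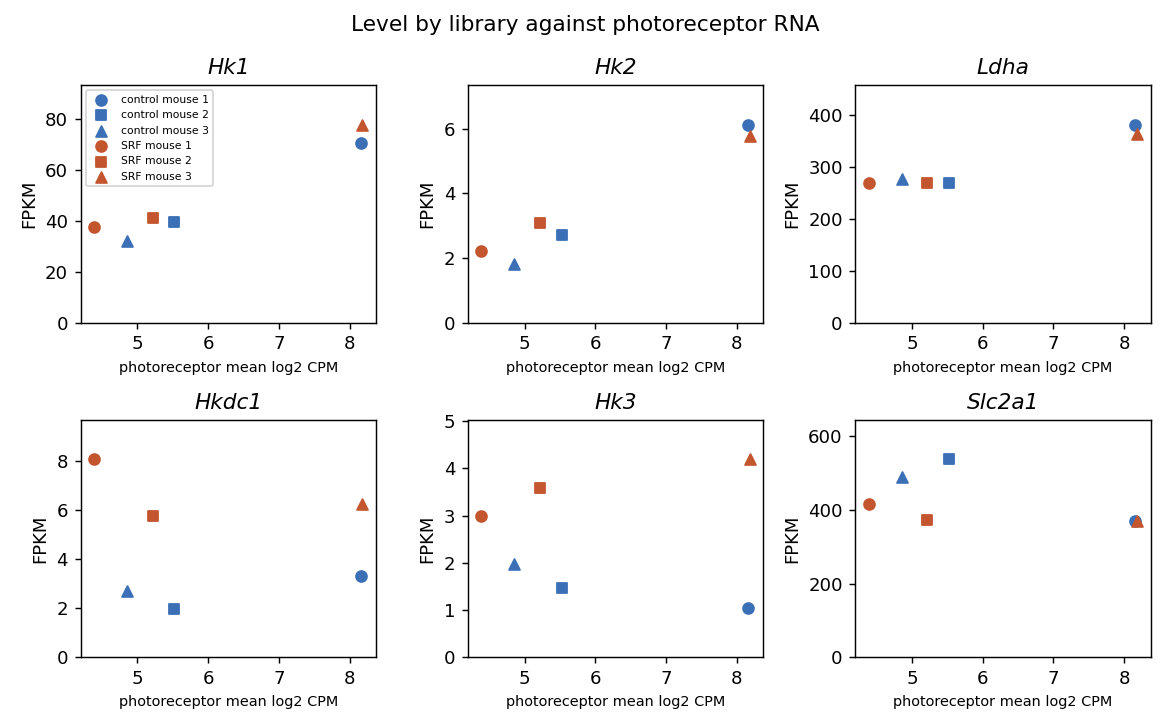
FPKM of 6 genes (vertical axes, each from 0) against the mean log2 CPM of 20 photoreceptor genes (horizontal axes) in the 3 control (blue) and 3 SRF (orange) mice. Hk1, Hk2 and Ldha are highest in the libraries at 8.16 and 8.18, and Hkdc1 and Hk3 are higher in SRF at either end of the axis.

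Markers of some other cell types were summed as well, with those of macrophages and microglia apart between the groups. The summed CPM of 15 macrophage and microglia markers was 1644 to 2093 in control and 3815 to 5529 in SRF. In CPM 9 of the 15 were higher in SRF without overlap between the groups, where 6.71% of all tested genes were. By the fitted value 14 of the 15 markers were higher in SRF, and none was at 0. Among them Lyz2, the lysozyme of macrophages, which like Csf1r is named after its values were seen, had 743 to 1004 CPM in the controls and 2078 to 3305 in SRF, whereas Csf1r, the receptor that defines the lineage, was at 146 to 175 and 151 to 166 CPM. This difference ran beside those of Hkdc1 and Hk3, and its part in them was not tested. Endothelial markers summed to 2265 to 2716 CPM in control and 2108 to 2839 CPM in SRF, and skeletal muscle markers to 2302 to 3760 and 1434 to 5145 CPM, both overlapping.

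To set the 10 genes in their pathway, 100 genes were drawn up in 9 lists from transport to the fates of pyruvate and the regulators of glycolytic genes. Of these 91 were listed and 85 were tested, the 10 included. The edgeR test called 0 of the 85, and DESeq2 called 2, Hkdc1 as higher and Slc16a1 as lower, where it called 0.803% of all tested genes as higher and 0.334% as lower. At an unadjusted p under 0.05 in the edgeR test 4 were higher and 2 lower, against 4.16% and 2.85% of all tested genes. The median log2 fold change over the 85 was -0.02. For the 4 tested hexokinases it was 0.68, which lies midway between Hk1 at 0.13 and Hk3 at 1.22, and Hk1 and Hk2 turned below 0 when SRF mouse 3 was left out. The preparatory enzymes had a median of -0.05 over 8 genes and the enzymes from Gapdh to Pkm a median of 0.04 over 9 genes, with 0 genes at an unadjusted p under 0.05 in either list and 0 called by edgeR or DESeq2 over all 6 libraries. With control mouse 1 and SRF mouse 3 left out, edgeR called 1 preparatory enzyme, the aldolase Aldoc, as lower (log2 fold change -0.80, adjusted p = 0.0308). That fit called 153 of 13145 tested genes, and Aldoc is named after its value was seen. Over all 6 libraries its log2 fold change was -0.32 (SE 0.27), and the groups overlapped. In the libraries left out Aldoc was at 418 CPM in control mouse 1 and 622 CPM in SRF mouse 3.

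Among the 8 tested glucose transporters, 3 were fitted higher and 5 lower, with a median of -0.07. Slc2a12, a transporter that also carries urate, had 72.6, 66.9 and 79.3 CPM in control and 47.6, 51.5 and 56.9 CPM in SRF. Its groups did not overlap. The log2 fold change was -0.49 (SE 0.12), with an adjusted p of 0.407 in edgeR and 0.0738 in DESeq2, so it was not called in either. Without SRF mouse 3 DESeq2 called it, at -0.57 with an adjusted p of 0.0124.

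Among the 8 tested lactate enzymes and carriers 2 were fitted higher and 6 lower, with a median of -0.15. Slc16a1 encodes MCT1, the carrier that brings lactate into the RPE from the retinal side. It had 783.4, 837.0 and 830.6 CPM in control and 519.5, 465.8 and 610.8 CPM in SRF, and the groups did not overlap. The log2 fold change was -0.62 (SE 0.13), with an adjusted p of 0.299 in edgeR and 0.00201 in DESeq2. Without control mouse 2, DESeq2 did not call it (adjusted p = 0.0871). It also stands in the study's list of changed genes from these libraries. A further pair of the list is named after its values were seen. Slc16a8, the lactate carrier MCT3 of the choroidal face of the RPE, had 777 ± 149 CPM in the controls and 607 ± 155 in SRF (SD, n = 3), with a log2 fold change of -0.36 (SE 0.23). Bsg, basigin, the protein that takes these carriers to the membrane, was at 3537 ± 228 and 3084 ± 320 CPM, with a log2 fold change of -0.20 (SE 0.12). Neither was called by edgeR (adjusted p = 0.884 and 0.863). The lower summed CPM of RPE markers in SRF given above, with Rgr as its largest part, ran beside all 3. The part of these markers was not tested.

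Among the 12 genes of pyruvate entry into mitochondria and the 18 tested genes of other routes of glucose 6-phosphate, 0 had an unadjusted p under 0.05 and 0 were called by edgeR or DESeq2. Their medians were -0.06 and 0.05. Among the 14 regulators 5 were fitted higher and 9 lower, with a median of -0.05. Mlxipl, the glucose-sensing transcription factor ChREBP, had 2.92 ± 0.194 CPM in the controls and 4.66 ± 0.249 in SRF (SD, n = 3), without overlap. Its log2 fold change was 0.67 (SE 0.26), and it was not called (edgeR adjusted p = 0.660, DESeq2 adjusted p = 0.673). Tfeb, a regulator of lysosomal genes, was the remaining gene with an unadjusted p under 0.05 in the edgeR test and is named after its value was seen, with a log2 fold change of 0.53 (SE 0.21) and overlapping groups. It was called by DESeq2 without SRF mouse 3, at 0.70 with an adjusted p of 0.0353. Hif1a, the hypoxia-induced factor that drives glycolytic genes and also named after its value was seen, was at 446 ± 86.0 and 428 ± 157 CPM.

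**Figure D5:**
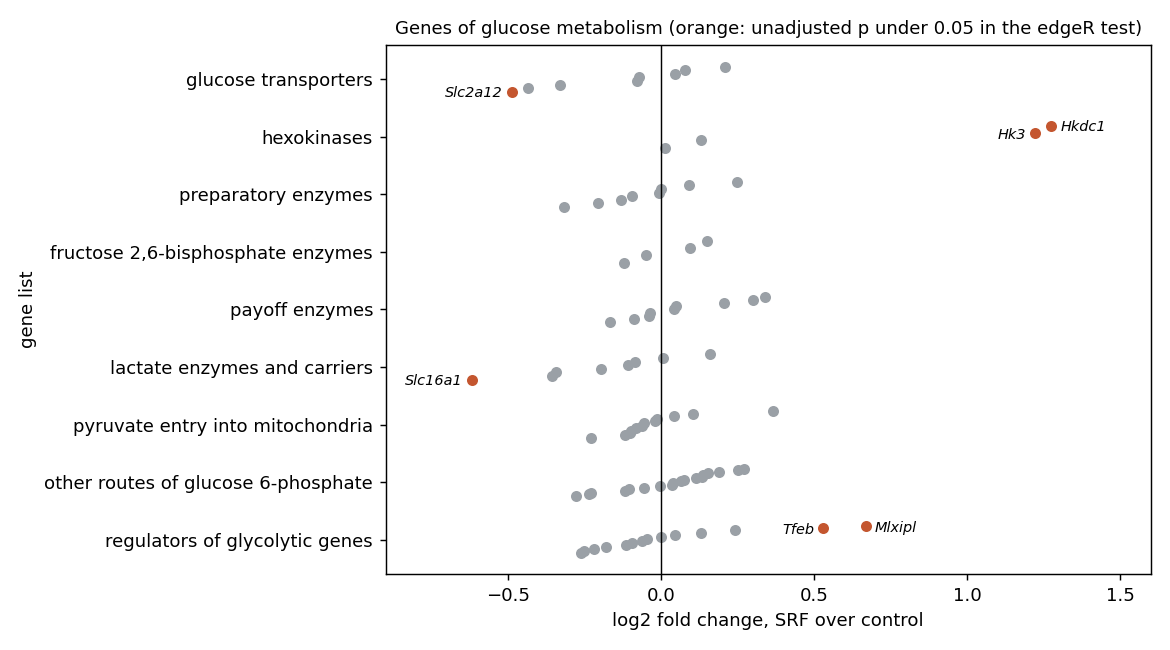
Log2 fold change of SRF over control (horizontal axis) for the 85 tested genes in 9 lists of glucose metabolism (rows). Orange points with names are the 6 genes with an unadjusted p under 0.05 in the edgeR test, of which 4 are higher (Hkdc1 at 1.28, Hk3 at 1.22) and 2 lower (Slc16a1 at -0.62, Slc2a12 at -0.49).

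The genes most like Hkdc1 over the 6 libraries were found by the root mean square difference of their log2 CPM, each centred on its own mean, over 13444 genes. The nearest was Cmas, which activates sialic acid, at 0.116. Its CPM was 33.1, 20.2 and 26.7 in control mice 1, 2 and 3 and 62.4, 53.0 and 55.8 in SRF mice 1, 2 and 3. As with Hkdc1, control mouse 2 was the lowest library and SRF mouse 1 the highest. Tm6sf1 followed at 0.208, Metrnl, a secreted factor, at 0.211, Fam178b at 0.230 and the ubiquitin ligase Rnf126 at 0.236. Hk3 was at 0.494, and the other 9 genes of the route lay between 0.701 for Pkm and 0.902 for Hk2. The measure takes in the difference between the groups as well as the spread within them.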

How the data were processed

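RNA-seq of RPE-choroid was used from 3 control and 3 SRF mice, grouped and numbered by their labels. The authors filtered reads with FASTP, counted them on genes with StringTie and deposited unscaled whole-number counts per gene. FPKM values were deposited by the authors beside them, scaled by transcript length and mapped reads. The aligner, the genome build and the strand setting are not given in the sources used here, so reads cannot be assigned to a strand where genes on both strands overlap. Of 15663 identifiers, 15659 were found in GENCODE M21 (GRCm38), from which symbols and positions were taken. The lowest count of any listed gene was 1.

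A gene entered the test where 2 or more samples had over 50 counts (13454 genes, with 2209 left out). It was run with edgeR 4.0.16 in R 4.3.3, with TMM (factors 0.978 to 1.03), glmQLFit and glmQLFTest at their defaults, the group as the only term, and Benjamini-Hochberg adjustment over all tested genes. Calls needed an adjusted p under 0.05 and a log2 fold change no smaller than 0.5 in size. Totals of 13667310 to 24356023 counts put 3 counts at 0.123 to 0.220 CPM. The exact permutation tests were two-sided on per-library log2 ratios of counts with 0.5 added, or on shares. The ratio of Hkdc1 to Hk1 in FPKM was tested as it stands, without a log or an added value. DESeq2 1.42.0, limma 3.58.1 on counts (voom) or on log2(FPKM + 0.1) and log2(FPKM + 1), legacy = FALSE, RLE normalization, no filter, a replicate block, leaving out libraries, and a photoreceptor covariate were alternatives. The edgeR, DESeq2 and limma voom fits were first run on simulated counts with planted fold changes. The check was that the median fitted fold change lay near the planted one, and it did not cover false calls. The simulation held no photoreceptor-rich libraries.

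The genes named were the 10, Hk3, and, in each pathway list, those called and those with the largest rise and fall at an unadjusted p under 0.05, with 5 genes most like Hkdc1. The 10 genes, the lists, the motif and the choice of the 2 photoreceptor-rich libraries were made with earlier results of these data known. Of the lists, Slc2a5, Slc5a2, Gapdhs, Pgk2, Pklr, Ldhc, Fbp1 and Fbp2 were among the genes not analysed here, and Slc2a2, Slc2a6, Slc2a9, Pfkfb1 and Pck1 were among those that did not reach the count criterion. Some results are not reported here. Other marker lists (Mueller glia, erythrocyte, fibroblast and smooth muscle, melanocyte, lens) were summed too. Promoters were found for 11 of 11 genes looked up (the 10 and Hk3), with 16 start sites.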

Additional observations from a re-analysis of the deposited data

How the results depend on the processing

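The number of genes called over the whole table depended on the tool and on the libraries fitted, and the cause was not tested. Against 0 in the edgeR fit reported, DESeq2 called 153 genes, limma with voom weights 1, legacy = FALSE 1, no filter on low counts 1, limma on log2(FPKM + 0.1) and on log2(FPKM + 1) 2 each, edgeR and DESeq2 with the photoreceptor covariate 1 and 262, and edgeR with control mouse 1 and SRF mouse 3 left out 153. With 1 library left out, edgeR called 0 to 5 and DESeq2 67 to 343. Of the 10 genes 1, Hkdc1, was called by DESeq2, by DESeq2 with the covariate and by edgeR with both libraries left out, and the range with 1 library left out was 0 with edgeR to 1 with DESeq2. Of the 85 pathway genes these settings called 2, 3 and 3, and 0 to 4 with 1 library left out. The log2 fold change of Hkdc1 was above 0 in 23 of 23 alternatives, at 1.28 in DESeq2, 1.28 with the covariate in DESeq2 (adjusted p = 0.000238) and 1.49 with both libraries left out (edgeR adjusted p = 0.0308), and 1.10 to 1.46 with 1 library left out. DESeq2 called it with any 1 library left out and edgeR with none, and over the alternatives the adjusted p ran from 7.15e-05 to 0.9999.

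Directions turned in genes close to 0. With 1 library left out the log2 fold change ranged from -0.17 to 0.44 for Hk1, -0.48 to 0.66 for Hk2, -0.35 to 0.041 for Pfkl, -0.20 to 0.14 for Gapdh, -0.18 to 0.18 for Pkm and -0.26 to 0.10 for Ldha, and the difference of Ldha against Ldhb from -0.19 to 0.23. Gapdh was also at 0.035 in limma on log2(FPKM + 0.1), 0.035 in limma on log2(FPKM + 1) and 0.21 with control mouse 1 and SRF mouse 3 left out, where Pkm was at -0.041. Slc2a1, Aldoa and Ldhb were below 0 in 23 of 23 alternatives, and Hk3 was above 0 in 23 of 23. The difference of Hkdc1 against Hk1 stayed between 0.86 and 1.44, and against Hk2 between 0.76 and 1.63. A mouse number stands for a different animal in each group. Across genes, the libraries of numbers 1, 2 and 3 departed from the 2 group means with correlations of -0.48, 0.48 and -0.30. This does not settle whether same-numbered libraries shared a preparation step, as the 2 photoreceptor-rich libraries bear different numbers. In the fit with a replicate block edgeR called 0 genes and gave Hkdc1 a log2 fold change of 1.29 (adjusted p = 0.345).

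With 3 mice a group the exact tests cannot pass 0.05. Groups of 3 were too small for a test of single outlying libraries.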

Other observations

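The remaining marker lists for the tissue overlapped between the groups in summed CPM. Mueller glia markers summed to 15785 to 18011 CPM in control and 14970 to 18777 CPM in SRF, erythrocyte markers to 3194 to 4359 and 2204 to 4507 CPM, fibroblast and smooth muscle markers to 5073 to 10903 and 7544 to 11674 CPM, and melanocyte markers to 3937 to 5503 and 5381 to 5664 CPM. Of the 10 Mueller glia genes 4 were fitted higher and 6 lower, 2 of the lower ones without overlap. These 2 were Rlbp1 and Car14, named after their values were seen. An unadjusted p under 0.05 in the edgeR test was found for 2. Rlbp1, on this list, is on the RPE list also. Of the 6 melanocyte genes 4 were fitted higher and 2 lower, 1 of the lower ones without overlap. Here 1 had an unadjusted p under 0.05 in the edgeR test. Lens markers, of which 6 of 10 were listed, summed to 7.97 to 68.7 CPM in control and 6.07 to 10.3 CPM in SRF. Of these 6 lens genes 5 were fitted lower, 2 without overlap, and 1 higher, without overlap. Their median log2 fold change was -2.66, and 5 had an unadjusted p under 0.05 in the edgeR test. The sum was highest in control mouse 2, at 68.7 CPM, while control mouse 1, at 7.97 CPM, lay among the SRF libraries. In SRF the lens gene Crygb was at 0.0557 to 0.280 CPM, near the 0.123 to 0.220 CPM of 3 counts. Of the 10 fibroblast and smooth muscle genes 8 were fitted higher, 1 without overlap, and 2 lower, with a median of 0.39 and 2 at an unadjusted p under 0.05. Over all tested genes, 6.71% were higher in SRF without overlap and 6.43% lower. The shares at an unadjusted p under 0.05 in the edgeR test were 4.16% and 2.85%. The part of these marker lists in the results was not tested. Of the 85 tested pathway genes 3 had groups apart in CPM with SRF higher and 6 with SRF lower. These counts stand against 6.71% and 6.43% of all tested genes. Some of these pathway genes, beyond the 10, separated the groups without an unadjusted p under 0.05 in the edgeR test. These are named after their values were seen. Mpc1, a subunit of the mitochondrial pyruvate carrier, stood at 306 ± 11.2 CPM in the controls and at 261 ± 7.78 CPM in SRF (SD, n = 3), a log2 fold change of -0.23 (SE 0.10). G6pc3, a glucose 6-phosphatase, was at 56.8 ± 2.41 and 48.3 ± 4.25 CPM, and Pcx, pyruvate carboxylase, at 73.6 ± 7.82 and 62.7 ± 2.31 CPM. Ppargc1a, a coactivator of mitochondrial genes, was at 83.2 ± 7.51 and 69.9 ± 3.81 CPM. None of the 4 was called by edgeR or DESeq2.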
